A study of Homo sapiens with 6 samples.

Results

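The mRNAs of the mTOR complexes, of the TSC complex that restrains them and of DDIT4 were followed in MDA-MB-231 cells depleted of RBCK1. The 10 genes were taken by their gene numbers and were all among the 17149 genes listed: DDIT4, TSC1, TSC2, RHEB, MTOR, RPTOR, RICTOR, MLST8, AKT1S1 and DEPTOR. MDA-MB-231 is an established human line of triple negative breast cancer, and its RNA was sequenced after transfection with siRBCK1 (3 libraries) or siControl (3 libraries). The siRNA lowers RBCK1, a ubiquitin ligase subunit that the study examines as a regulator of the Hippo pathway factor YAP, and the siControl cells received a negative control siRNA. The labels do not say whether siRBCK1 was 1 siRNA or a mixture, and whether each replicate was a culture of its own is not stated, so the p-values measure only the spread between these libraries.

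mTOR is a kinase that works in a pair of complexes. In mTORC1 it is joined by raptor (RPTOR) and drives protein synthesis and growth when amino acids and growth factors are at hand, whereas in mTORC2 it is joined by rictor (RICTOR) and phosphorylates AKT and related kinases. The small GTPase RHEB switches mTORC1 on at the lysosome, the TSC complex switches RHEB off, and DDIT4 (also called REDD1) is a stress-induced protein that restrains mTORC1 through the TSC complex.

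The values are FPKM, fragments counted on a gene divided by its length and by the total of the library, so that levels can be set side by side between genes. RBCK1 had 41.53, 46.15 and 45.61 FPKM in siRBCK1 cells, against 64.96, 63.62 and 73.37 FPKM in siControl cells, so 66.0% of the siControl mean was left (log2 fold change -0.59, adjusted p = 6.55e-05 from limma). The mesenchymal markers of the line, VIM, CD44, MSN, AXL and CAV1, lay between 167 and 2010 FPKM in all 6 libraries. Of 5 markers that the line should hold at a low level, ESR1, PGR and CDH1 were at 0.25 FPKM or below, EPCAM was at 6.73 to 8.78 FPKM, and ERBB2 was higher in siRBCK1 (18.09 to 18.42 FPKM) than in siControl cells (11.66 to 14.04 FPKM). The luminal keratin KRT8 was high, at 629 to 647 FPKM in siRBCK1 and 697 to 789 FPKM in siControl cells. GATA3, a further luminal marker, was at 4.07 to 4.88 FPKM in siRBCK1 and 4.74 to 5.99 FPKM in siControl cells. Markers of immune and endothelial cells were near 0 apart from CD14 (1.89 to 3.44 FPKM). Of the fibroblast markers, COL1A2 and DCN were at 0.04 FPKM or below, whereas COL1A1 (5.84 to 5.89 FPKM in siRBCK1, 3.70 to 4.20 FPKM in siControl cells) and PDGFRB (1.48 to 1.95 FPKM in siRBCK1, 0.86 to 1.26 FPKM in siControl cells) were higher in siRBCK1 cells, and the part of such genes in the results was not tested. Among the 11135 genes tested (those reaching 1 FPKM in 3 or more of the libraries), 4103 were higher and 1899 lower in siRBCK1 than in siControl cells at an adjusted p under 0.05 (limma on log2(FPKM + 1), two-sided, Benjamini-Hochberg over all genes tested). Over all of them the median log2 fold change was 0.11. With quantile normalization it was 0.01, with trimmed-mean scaling -0.01, and 0.01 once the trend with gene length and GC content was removed, and the counts were 2787 higher and 2703 lower with the first of these, 2592 and 2995 with the second, and 2796 and 2829 with the last.

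DDIT4 rose and all 3 subunits of the TSC complex fell in siRBCK1 cells, together with raptor and with the shared subunit MLST8, whereas rictor rose. Of the 9 genes tested (DEPTOR was below the expression minimum), 2 were higher, against 36.8% of all tested genes, and 4 were lower, against 17.1% of all tested genes, which makes 6 of 9 in either direction, against 53.9%. The groups did not overlap for 7 of the 9, against 62.8% of all tested genes. The median log2 fold change of the 9 was 0.07, beside 0.11 for all tested genes.

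The plot of FPKM by gene gives every library, from RHEB at over 200 FPKM to DEPTOR at under 0.2 FPKM.

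**Figure D1:**
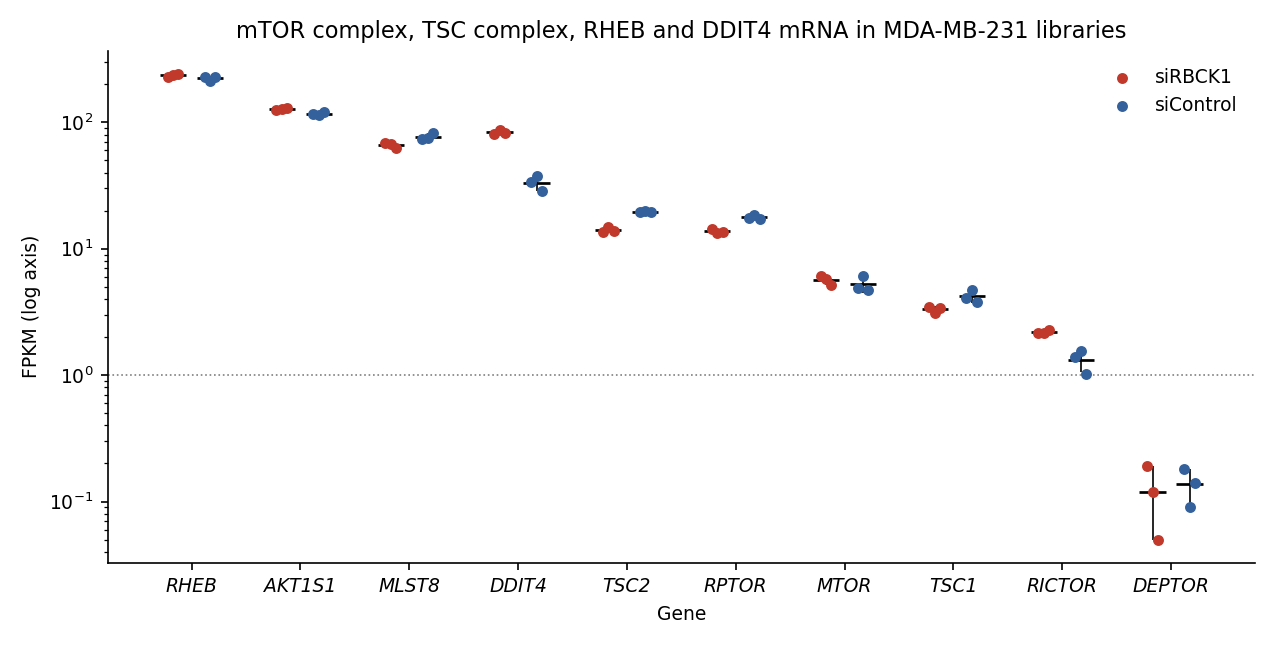
FPKM (log axis) of the 10 genes in 3 siRBCK1 libraries (red, left of each pair) and 3 siControl libraries (blue, right); points are libraries, horizontal lines means, vertical lines ± 1 SD, and the dotted line is at 1 FPKM. RHEB has the highest level and DEPTOR the lowest in both groups, and DDIT4 stands above MLST8 in siRBCK1 but below it in siControl cells.

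In siRBCK1 cells the order of levels was RHEB, AKT1S1, DDIT4, MLST8, TSC2, RPTOR, MTOR, TSC1, RICTOR and DEPTOR, and only TSC2 and RPTOR, which are neighbours in it, overlapped in their libraries. In siControl cells DDIT4 (33.3 ± 4.58 FPKM) stood one place lower, after MLST8 (77.1 ± 4.67 FPKM), and only the neighbours MTOR and TSC1 overlapped. The GTPase RHEB was thus listed far above the kinase it activates, at 235 ± 6.05 FPKM against 5.68 ± 0.505 FPKM for MTOR in siRBCK1 cells and at 224 ± 9.97 FPKM against 5.25 ± 0.779 FPKM in siControl cells (SD, n = 3 each). RHEB has 3 annotated processed pseudogenes (RHEBP1, RHEBP2 and RHEBP3), and how reads shared with such copies were counted is not given in the sources used here.

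The DDIT4 gene is found at positions 72273924 to 72276036 of chromosome 10, plus strand (RefSeq, GRCh38.p14). It had 80.84, 86.27 and 83.1 FPKM in siRBCK1 cells, against 33.8, 37.53 and 28.42 FPKM in siControl cells. Every siRBCK1 library stood far above the highest siControl library. The ratio of the means was 2.51, and on the log2(FPKM + 1) scale the rise was 1.31 (standard error 0.09, 95% interval 1.12 to 1.50, limma adjusted p = 1.54e-06), rank 23 from the top among the 11135 genes. Relative to the median of all genes, the log2 fold change was 1.20. It lay between 1.18 and 1.40 over the 14 alternative settings, and its adjusted p was at most 0.00697. An antisense gene, DDIT4-AS1, overlaps DDIT4 on the other strand, and the sources used here do not say whether reads were counted by strand. In bulk libraries like these, more RNA per cell and more cells with the RNA cannot be told apart. The paralog DDIT4L was at 0.49, 0.34 and 0.44 FPKM in siRBCK1 cells, against 0.20, 0.07 and 0.25 FPKM in siControl cells, and was too low to be tested.

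DDIT4 is known to be induced by hypoxia through HIF1A, by ATF4 in the integrated stress response and by glucocorticoids, and the letters that some of these factors read can be looked for in front of the genes. The 250 bases upstream of the start site in the RefSeq table were searched on both strands for ACGTG (the core of hypoxia response elements), CACGTG (the E-box, which holds ACGTG on each strand) and TGATGNAA (the composite element read by ATF4). The RefSeq table of promoters (GRCh38.p14) held 7 of the 10 genes, all but MLST8, AKT1S1 and DEPTOR (for TSC1 the start site of the table lies inside the gene span given here), and 4 of the 7 had ACGTG, which 18.7% of all 27305 such windows hold. The stretches around the matched letters of these 4 are given 5′ to 3′ along the gene, because they are the only places in these windows where the letters occur, with the matches in capitals.
DDIT4: agaacgttgcttACGTGcgcccggagtcc
RICTOR: ccctcccggcggACGTGccctccgggtcc
TSC2: cggccccgtCACGTGATGCAAggatcgccg
RHEB: tggagtttccgaCACGTcatcgcgcggct
They lie at chr10:72273787-72273815 (plus strand), chr5:39074589-39074617 (minus strand), chr16:2047862-2047891 (plus strand) and chr7:151519960-151519988 (minus strand). The core starts 125 bases before the start of DDIT4, 206 bases before that of RICTOR and 81 bases before that of RHEB, where it is read on the opposite strand (CACGT along the gene). In TSC2 an E-box, found in 6.49% of all windows, runs into the ATF4 composite letters, found in 3.19%, with the letters TG shared between them. The window of a further TSC2 start site in the RefSeq table (chr16:2047952-2048201) holds none of these letters. The holders do not share a direction, since DDIT4 and RICTOR rose, TSC2 fell and RHEB did not pass the test. A match of letters is a description and no binding was measured.

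The TSC complex is made of hamartin (TSC1), tuberin (TSC2, the subunit that switches RHEB off) and TBC1D7. TSC2 (chromosome 16, 2047985 to 2089491, plus strand) had 13.58, 14.82 and 13.87 FPKM in siRBCK1 cells, against 19.37, 19.79 and 19.38 FPKM in siControl cells. The siControl libraries were close to each other, and all 3 siRBCK1 libraries lay below them. TSC2 fell to 72.2% of the siControl mean (log2 fold change -0.44, standard error 0.06, adjusted p = 0.000216 from limma), and it kept an adjusted p of at most 0.00631 over the 14 alternatives, with log2 fold changes between -0.57 and -0.42. It overlaps NTHL1 and PKD1 on the other strand.

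TSC1 (chromosome 9, 132891349 to 132945378, minus strand) had 3.46, 3.08 and 3.38 FPKM in siRBCK1 cells, against 4.10, 4.73 and 3.79 FPKM in siControl cells. The groups did not overlap, but the lowest siControl library was close to the highest siRBCK1 library. TSC1 fell to 78.6% of the siControl mean (log2 fold change -0.27, standard error 0.09, adjusted p = 0.0257 from limma). This call was lost without siControl replicate 2 (adjusted p = 0.0836), without siRBCK1 replicate 2 (0.0986) and without siRBCK1 replicate 3 (0.0625), with no expression filter (0.0611) and without moderation of the variances (0.0726). The log2 fold change was -0.43 with the trend of length and GC content removed (adjusted p = 0.00051).

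TBC1D7, which was not among the 10 genes, had 17.04, 16.31 and 19.01 FPKM in siRBCK1 cells, against 21.34, 20.51 and 21.37 FPKM in siControl cells. All siRBCK1 libraries lay below all siControl libraries, and TBC1D7 fell to 82.8% of the siControl mean (log2 fold change -0.26, standard error 0.07, adjusted p = 0.00842 from limma). With length and GC content removed its log2 fold change was -0.42. The 3 subunits therefore stood at 72.2%, 78.6% and 82.8% of their siControl means, and the ratio of TSC2 to TSC1 inside a library was 4.28 ± 0.469 in siRBCK1 and 4.67 ± 0.467 in siControl cells (SD, n = 3 each), with overlapping libraries (two-sided exact permutation p = 0.3).

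RHEB, the target of the TSC complex, had 228.36, 237.16 and 239.95 FPKM in siRBCK1 cells, against 228.86, 212.08 and 229.81 FPKM in siControl cells. The lowest siRBCK1 library lay among the siControl libraries, and RHEB did not pass the test (log2 fold change 0.07, 95% interval -0.04 to 0.19, adjusted p = 0.249 from limma). Its sign depended on the scaling, with 0.16 after quantile normalization (adjusted p = 0.00542) and -0.06 after trimmed-mean scaling (adjusted p = 0.472). RHEBL1, its paralog, stood at 3.40 ± 0.421 FPKM in siRBCK1 and 2.94 ± 0.745 FPKM in siControl cells (SD, n = 3 each, adjusted p = 0.293 from limma). The ratio of RHEB to TSC2 inside a library is unchanged by a factor common to all genes of that library. Quantile normalization and the removal of length and GC content can move this ratio. It was 16.82, 16.0 and 17.3 in siRBCK1 cells, against 11.82, 10.72 and 11.86 in siControl cells, so that every siRBCK1 library was higher (log2 difference 0.54, two-sided exact permutation p = 0.1, adjusted p = 0.15 over 6 ratios). With 3 libraries against 3, 0.1 is the smallest p that this test can give.

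The kinase itself, MTOR (chromosome 1, 11106535 to 11262551, minus strand), had 6.12, 5.80 and 5.13 FPKM in siRBCK1 cells, against 4.89, 6.14 and 4.71 FPKM in siControl cells. The libraries of both groups were interleaved, and the log2 fold change of 0.10 (95% interval -0.12 to 0.33) had an adjusted p of 0.412 from limma. The sign turned to -0.06 under quantile normalization, to -0.01 under trimmed-mean scaling and to -0.03 with length and GC content removed, so no direction can be given for MTOR mRNA. ANGPTL7 and MTOR-AS1 overlap MTOR on the other strand.

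MLST8, which sits on the kinase domain in both complexes, had 68.57, 67.81 and 63.05 FPKM in siRBCK1 cells, against 73.36, 75.57 and 82.33 FPKM in siControl cells. The groups did not overlap, with siRBCK1 replicate 3 lowest and siControl replicate 3 highest of all. MLST8 (chromosome 16, 2205454 to 2209453) fell to 86.2% of the siControl mean (log2 fold change -0.21, standard error 0.06, limma adjusted p = 0.0126). The call did not hold without siRBCK1 replicate 3 (adjusted p = 0.069) or without moderation of the variances (0.0629). Trimmed-mean scaling gave -0.34.

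DEPTOR, an inhibitory subunit of both complexes, was at 0.19, 0.12 and 0.05 FPKM in siRBCK1 cells, against 0.18, 0.09 and 0.14 FPKM in siControl cells. No library reached 0.2 FPKM, the groups overlapped and no test was made.

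Raptor, which brings substrates to mTORC1, is encoded by RPTOR (chromosome 17, 80544838 to 80966368, plus strand). RPTOR had 14.4, 13.28 and 13.62 FPKM in siRBCK1 cells, against 17.56, 18.52 and 17.09 FPKM in siControl cells. All siRBCK1 libraries were below all siControl libraries, and RPTOR fell to 77.7% of the siControl mean (log2 fold change -0.34, standard error 0.06, adjusted p = 0.00133 from limma). Its log2 fold change lay between -0.47 and -0.31 over the 14 alternatives, with an adjusted p of at most 0.0133.

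AKT1S1 encodes PRAS40, which inhibits mTORC1 until AKT phosphorylates it. It had 124.7, 127.18 and 130.25 FPKM in siRBCK1 cells, against 115.94, 114.07 and 121.48 FPKM in siControl cells. The groups did not overlap, yet the difference did not pass the test (log2 fold change 0.12, 95% interval 0.01 to 0.23, adjusted p = 0.0586 from limma). The adjusted p was 0.0188 after quantile normalization and 0.0155 without siControl replicate 3, whereas trimmed-mean scaling turned the sign (log2 fold change -0.01, adjusted p = 0.871). Inside a library, AKT1S1 stood at 22.6 ± 2.57 times MTOR in siRBCK1 cells and at 22.7 ± 3.71 times MTOR in siControl cells (SD, n = 3 each, two-sided exact permutation p = 1.0).

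Rictor defines mTORC2. RICTOR (chromosome 5, 38937920 to 39074399, minus strand) had 2.15, 2.16 and 2.28 FPKM in siRBCK1 cells, against 1.38, 1.56 and 1.03 FPKM in siControl cells. It was the only other gene of the 10 besides DDIT4 that rose, with all siRBCK1 libraries above all siControl libraries and a ratio of the means of 1.66. Limma put the rise at 0.47 on the log2 scale (standard error 0.10, adjusted p = 0.00247), and at 0.71 at a pseudocount of 0.1, since a pseudocount of 1 shrinks the change of so low a gene. RICTOR has the longest exonic sequence of the 10 (9543 nt, against a median of 3600 nt in all tested genes) and the lowest GC content (36.5%, against a median of 48.5%). Across all tested genes the log2 fold change went up with length (Spearman correlation 0.224 over 11074 genes, which do not count as replicates) and down with GC content (-0.278). With both trends removed, 0.23 remained for RICTOR (limma adjusted p = 0.0249). RPTOR, with 59.8% GC, had -0.38 (adjusted p = 0.000308), TSC2, with 60.5% GC, had -0.48 (9.3e-05), and MLST8, with 64.5% GC, had -0.18 (0.0326).

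MAPKAP1 encodes SIN1, which recruits substrates to mTORC2. It was not among the 10 genes but moved most of the mTORC2 subunits, with 29.05, 26.53 and 28.95 FPKM in siRBCK1 cells, against 51.64, 52.71 and 51.07 FPKM in siControl cells. Every siRBCK1 library lay far below every siControl library, so MAPKAP1 and RICTOR moved in opposite directions inside the same complex. MAPKAP1 fell to 54.4% of the siControl mean (log2 fold change -0.86, standard error 0.06, adjusted p = 1.54e-06 from limma) and ranked 101 from the bottom among 11135 genes. Its log2 fold change lay between -0.99 and -0.82 over the 14 alternatives. PRR5L, a further mTORC2 subunit, did not pass the test (0.09, adjusted p = 0.431), and its paralog PRR5 was at 0.38, 0.48 and 0.38 FPKM in siRBCK1 cells, against 0.72, 0.83 and 0.52 FPKM in siControl cells, below the minimum.

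TELO2, TTI1 and TTI2 form the co-chaperone that helps mTOR and its sister kinases to fold. TTI2 rose to 134% of the siControl mean (log2 fold change 0.36, adjusted p = 0.00656 from limma), with 6.09, 6.54 and 6.64 FPKM in siRBCK1 cells, against 4.32, 5.48 and 4.61 FPKM in siControl cells, but not past the threshold after quantile normalization (0.19, adjusted p = 0.0789). TELO2 rose less (0.22, adjusted p = 0.0324), a call lost in 7 of 14 alternatives, among them those without siRBCK1 replicate 2, without siControl replicate 1 and without siControl replicate 3, with a highest adjusted p of 0.306. TTI1 did not pass (0.04, adjusted p = 0.626).

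**Figure D2:**
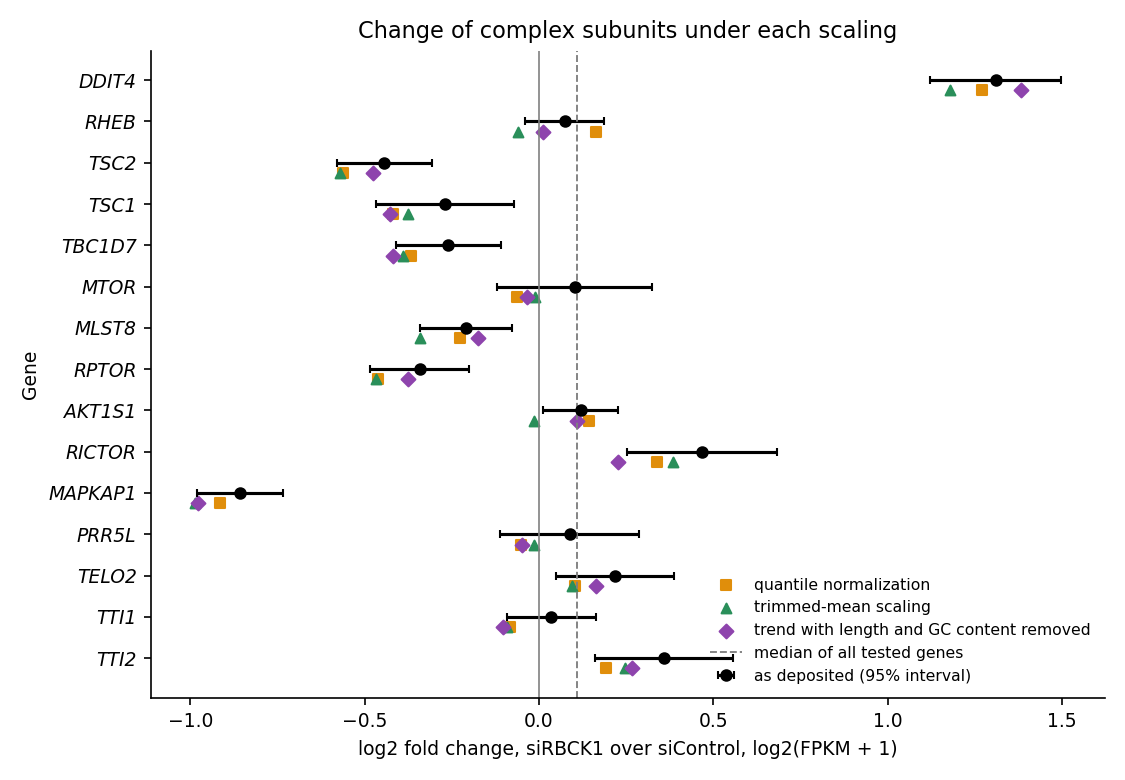
Log2 fold change on log2(FPKM + 1), siRBCK1 over siControl, of tested complex subunits and of DDIT4 (limma, n = 3 each). Black points and bars are values as deposited with 95% intervals, coloured points the same under 3 other scalings, and the dashed line is the median of all tested genes (0.11). DDIT4 (1.31) and MAPKAP1 (-0.86) stand far from 0 under every scaling shown, whereas the points of MTOR and RHEB fall on both sides of 0.

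The ratio of raptor to rictor mRNA compares the defining subunits of the complexes inside each library. RPTOR stood at 6.70, 6.15 and 5.97 times RICTOR in siRBCK1 cells, against 12.72, 11.87 and 16.59 times in siControl cells. Each siControl library had a ratio well above every siRBCK1 library, and the log2 difference was -1.12 (two-sided exact permutation p = 0.1, the smallest possible, adjusted p = 0.15 over 6 ratios). It was -0.81 when 1 FPKM was added to each value, and -0.60 when length and GC content were then removed from those values.

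MLST8 stood at 11.7 ± 0.544 times MTOR in siRBCK1 cells and at 14.9 ± 2.59 times MTOR in siControl cells (SD, n = 3 each, log2 difference -0.33, two-sided exact permutation p = 0.1, adjusted p = 0.15). The highest siRBCK1 library (12.29) was nearly level with the lowest siControl library (12.31). With length and GC content removed from log2(FPKM + 1) values, the difference was -0.14 (exact permutation p = 0.3). DDIT4 stood at 13.21, 14.87 and 16.2 times MTOR in siRBCK1 cells, against 6.91, 6.11 and 6.03 times in siControl cells. This ratio was higher in every siRBCK1 library (log2 difference 1.21, two-sided exact permutation p = 0.1, adjusted p = 0.15).

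**Figure D3:**
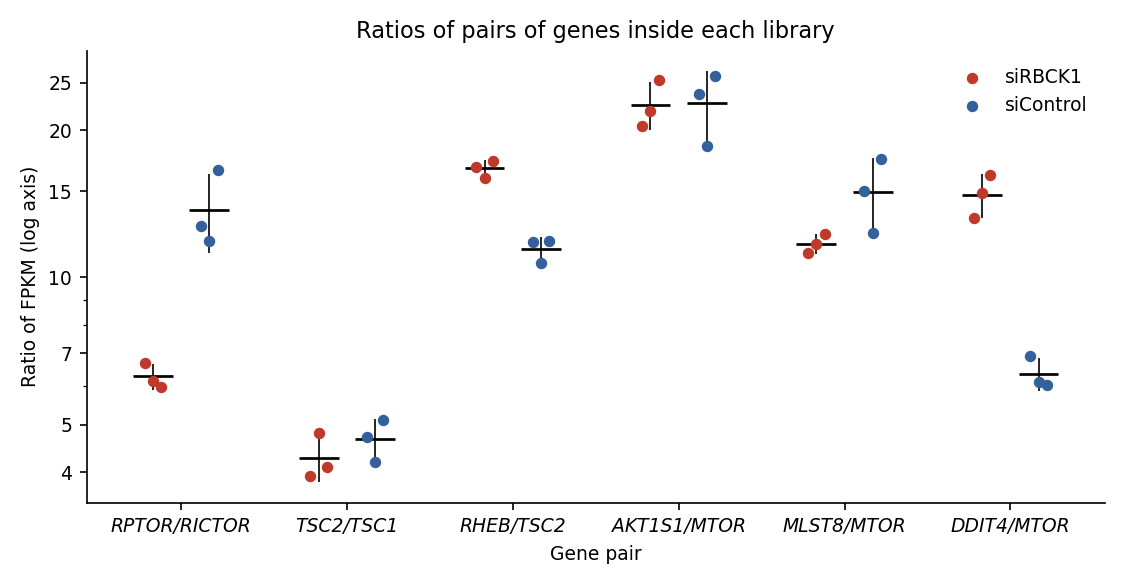
Ratios of the FPKM of 6 pairs of genes inside each library (log axis), siRBCK1 in red on the left and siControl in blue on the right of each pair; points are libraries, horizontal lines means and vertical lines ± 1 SD (n = 3 each). RPTOR/RICTOR is lower and RHEB/TSC2 and DDIT4/MTOR are higher in all siRBCK1 libraries, MLST8/MTOR nearly touches, and TSC2/TSC1 and AKT1S1/MTOR overlap.

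The genes whose level followed DDIT4 most closely over the 6 libraries were CCN1 (root mean square distance of the centred log2 profiles 0.04), STX12 (0.08), ZW10 (0.08), CCN2 (0.08) and ARHGAP19 (0.09). CCN1 and CCN2, secreted matricellular proteins and textbook targets of YAP, had 798 ± 27.1 and 151 ± 1.82 FPKM in siRBCK1 cells, against 331 ± 50.6 and 65.7 ± 6.05 FPKM in siControl cells (SD, n = 3 each). Since DDIT4 separates the groups, any gene with a like step between them comes close to it, and the distance says nothing of shared control.

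A list of 19 genes held factors known to induce DDIT4, genes they also induce and the DDIT4 partner TXNIP. The test called 11 of 19 genes higher and 5 lower and left 3 without a call. These calls were 57.9% and 26.3% of the list, against 36.8% and 17.1% of all tested genes. The list was chosen with earlier results of these data known, so its shares are a description only. The median log2 fold change was 0.20 beside 0.11 for all tested genes. Quantile normalization gave 10 higher and 5 lower, and both trimmed-mean scaling and the removal of length and GC content gave 9 and 5, so that 47.4% to 52.6% of the list were higher where 23.3% to 25.2% of all genes were. Under these scalings 26.3% of the list were lower, against 24.3% to 26.9% of all genes. ADM, CEBPB, CA9 and TXNIP had the 4 largest changes among genes of this list with a group mean of 5 FPKM or more. CHAC1, below that minimum, changed more than TXNIP and fell. The genes of this list named beyond these 4 were chosen after their values were seen. ADM, the vasodilator adrenomedullin and a hypoxia target, rose most, to 116.9 ± 2.56 FPKM in siRBCK1 cells, against 44.3 ± 1.70 FPKM in siControl cells (SD, n = 3 each, log2 fold change 1.38, adjusted p = 5.48e-08 from limma). The transcription factor CEBPB (log2 fold change 1.10), the hypoxia-induced carbonic anhydrase CA9 (0.73) and TXNIP, a binding partner of the DDIT4 protein (0.58), also rose. HIF1A mRNA rose by 0.47 on the log2 scale (0.25 with length and GC content removed), whereas VEGFA, a further hypoxia target, was at 78.0 ± 4.55 FPKM in siRBCK1 and 77.6 ± 7.15 FPKM in siControl cells (SD, n = 3 each, adjusted p = 0.919).

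In the ATF4 branch, ATF4 itself (log2 fold change 0.17, but 0.03 with an adjusted p of 0.643 after trimmed-mean scaling) and the pseudokinase TRIB3 (0.49) were higher, whereas the glutathione-degrading enzyme CHAC1 (-0.61), the asparagine synthetase ASNS (-0.21) and the transcription factor DDIT3 (-0.19) were lower. The call of ASNS was lost without siControl replicate 1, siRBCK1 replicate 2 or siRBCK1 replicate 3 (adjusted p up to 0.098). That of DDIT3 was lost in 6 of 14 alternatives (adjusted p up to 0.149), among them those without siControl replicate 1 or 3 and without siRBCK1 replicate 1 or 3. Of the p53 targets in the list, the cell cycle inhibitor CDKN1A (-0.49) fell and MDM2 did not pass. In the glucocorticoid branch, the co-chaperone FKBP5 (0.50), TSC22D3 (0.40) and the receptor NR3C1 (0.40) were higher and PER1 did not pass. With length and GC content removed, NR3C1 had 0.17 (adjusted p = 0.0547) and FKBP5 0.28. Without moderation of the variances the adjusted p was 0.0567 for FKBP5 and 0.0824 for TSC22D3, which also missed the threshold with quantile normalization (0.24, adjusted p = 0.0502).

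**Figure D4:**
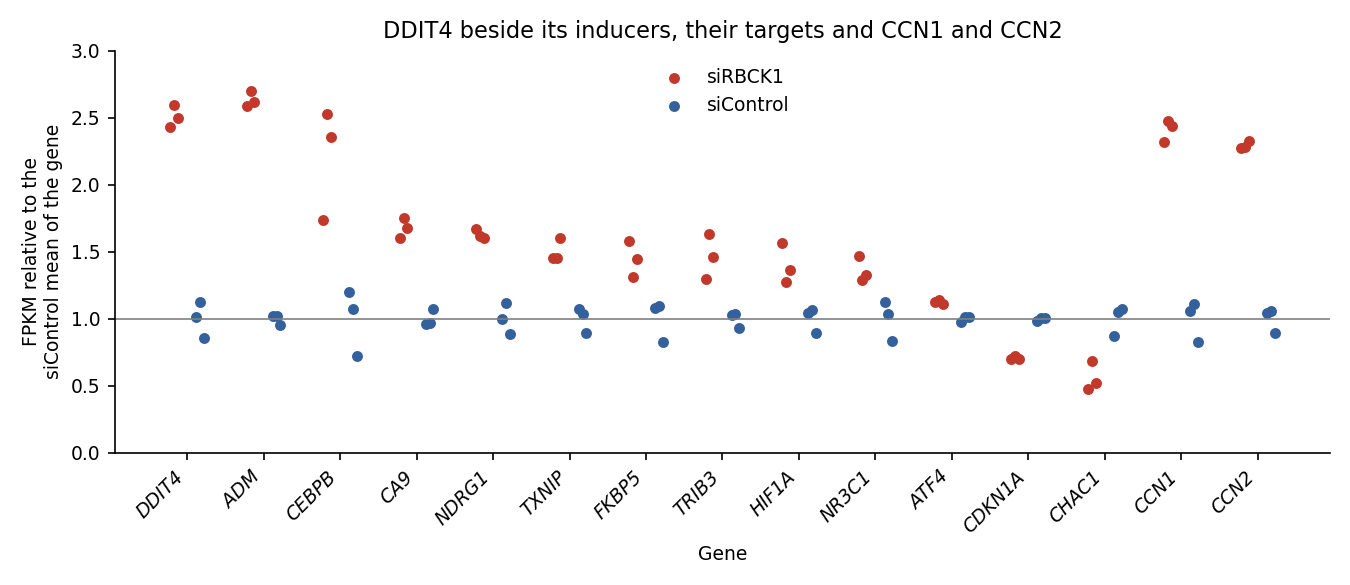
FPKM of each gene divided by its siControl mean, in 3 siRBCK1 libraries (red, left) and 3 siControl libraries (blue, right), for DDIT4, for genes of the list of its inducers and their targets, for NDRG1 and for CCN1 and CCN2; points are libraries and the line is at 1. DDIT4, ADM, CCN1 and CCN2 lie between 2.27 and 2.70 in siRBCK1 cells, while CDKN1A and CHAC1 lie between 0.48 and 0.72.

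Around the complexes, 50 of 99 tested genes in 5 lists were higher and 14 lower, 50.5% and 14.1% of them against 36.8% and 17.1% of all tested genes, with a median log2 fold change of 0.19. The 5 lists include the inducers of DDIT4 and their targets, so those 19 genes (11 higher, 5 lower) are counted here again. All 5 lists were chosen with earlier results of these data known, so their shares are a description only. Fewer were higher under each other scaling: quantile normalization gave 35 higher and 22 lower, trimmed-mean scaling 32 and 21, and the removal of length and GC content 35 and 22. These are 32.3% to 35.4% higher, against 23.3% to 25.2% of all genes, and 21.2% to 22.2% lower, against 24.3% to 26.9%. Amino acid sensing at the lysosome counted 13 higher (48.1%), 4 lower (14.8%) and 10 not passed of 27 tested genes. Quantile normalization gave 8 higher and 7 lower, trimmed-mean scaling 5 and 8 (18.5% and 29.6%, against 23.3% and 26.9% of all genes), and the removal of length and GC content 6 and 4. FLCN, which activates mTORC1 signalling through the Rag GTPases (log2 fold change 0.45, but an adjusted p of 0.0857 without moderation of the variances), and the lysosomal arginine sensor SLC38A9 (0.34) rose, the second of them with 0.12 and an adjusted p of 0.0773 after removal of length and GC content. KPTN (-0.34), a subunit of the KICSTOR scaffold, and the cytosolic arginine sensor CASTOR1 (-0.33) fell. The sestrins are leucine-regulated and stress-regulated inhibitors of mTORC1. SESN1 had 0.51, 0.80 and 0.79 FPKM in siRBCK1 cells, against 1.36, 1.10 and 1.27 FPKM in siControl cells. It met the expression minimum only through the siControl libraries, so its log2 fold change of -0.40 is given as a description only. It is among the 4 lower genes of the list and could be fitted in 10 of the 14 alternatives. SESN2 rose (0.26), the rise being lost in 8 of 14 alternatives (adjusted p up to 0.229), among them those without siControl replicate 1 and with each siRBCK1 replicate left out in turn.

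Growth factor and energy inputs counted 13 higher (52% of the list), 2 lower (8%) and 10 not passed of 25 tested genes. Of all tested genes, 36.8% were higher and 17.1% lower. Quantile normalization and trimmed-mean scaling each gave 12 higher and 4 lower (48% and 16%). The removal of length and GC content gave 13 and 7 (52% and 28%). Under these scalings 23.3% to 25.2% of all genes were higher and 24.3% to 26.9% lower. AKT1, a kinase that phosphorylates TSC2 and PRAS40, rose to 81.4 ± 0.777 FPKM in siRBCK1 cells, against 54.7 ± 1.20 FPKM in siControl cells (SD, n = 3 each, log2 fold change 0.57, adjusted p = 9.08e-06 from limma). The PI3-kinase subunit PIK3CD (0.56) and the AMPK subunits PRKAG2 (0.63) and PRKAA1 (0.50) rose with it, as did STK11 (0.55), the kinase LKB1 that activates AMPK. PRKAA1 had 0.27 with length and GC content removed, and PRKAG2 an adjusted p of 0.0699 without moderation of the variances. The AMPK subunit PRKAG1 fell (-0.21, adjusted p = 0.00873 from limma), as did the phosphatase INPP4B (-0.53). Of the other AMPK subunits, PRKAA2 (0.49) and PRKAB2 (0.64) were higher and PRKAB1 did not pass. Among the other PI3-kinase subunits, PIK3R2 was higher (0.19), while PIK3CA, PIK3CB, PIK3R1 and PIK3R3 did not pass.

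Substrates and effectors counted 11 higher (52.4%), 1 lower (4.76%) and 9 not passed of 21 tested genes, against 36.8% and 17.1% of all tested genes. Each other scaling gave 5 higher, or 23.8%, close to the 23.3% to 25.2% of all genes. Quantile normalization and the removal of length and GC content each gave 4 lower (19%), and trimmed-mean scaling gave 2 (9.52%). Of all genes, 24.3% to 26.9% were lower under these scalings. EIF4EBP1, the translation repressor 4E-BP1 that mTORC1 inactivates, fell to 270.3 ± 8.19 FPKM in siRBCK1 cells, against 364 ± 30.6 FPKM in siControl cells (SD, n = 3 each, log2 fold change -0.43, adjusted p = 0.000337 from limma). NDRG1, a substrate of SGK1 downstream of mTORC2 and itself induced by hypoxia (0.71), the translation inhibitor PDCD4 (0.54) and the lysosomal transcription factor TFEB (0.38) rose. TFEB lost the call with quantile normalization (0.23, adjusted p = 0.0546) and without moderation of the variances (0.0836), and PDCD4 without moderation (0.0521), its log2 fold change being 0.32 with length and GC content removed. The substrate kinases RPS6KB1 and RPS6KB2 did not pass the test (-0.08 and -0.03).

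**Figure D5:**
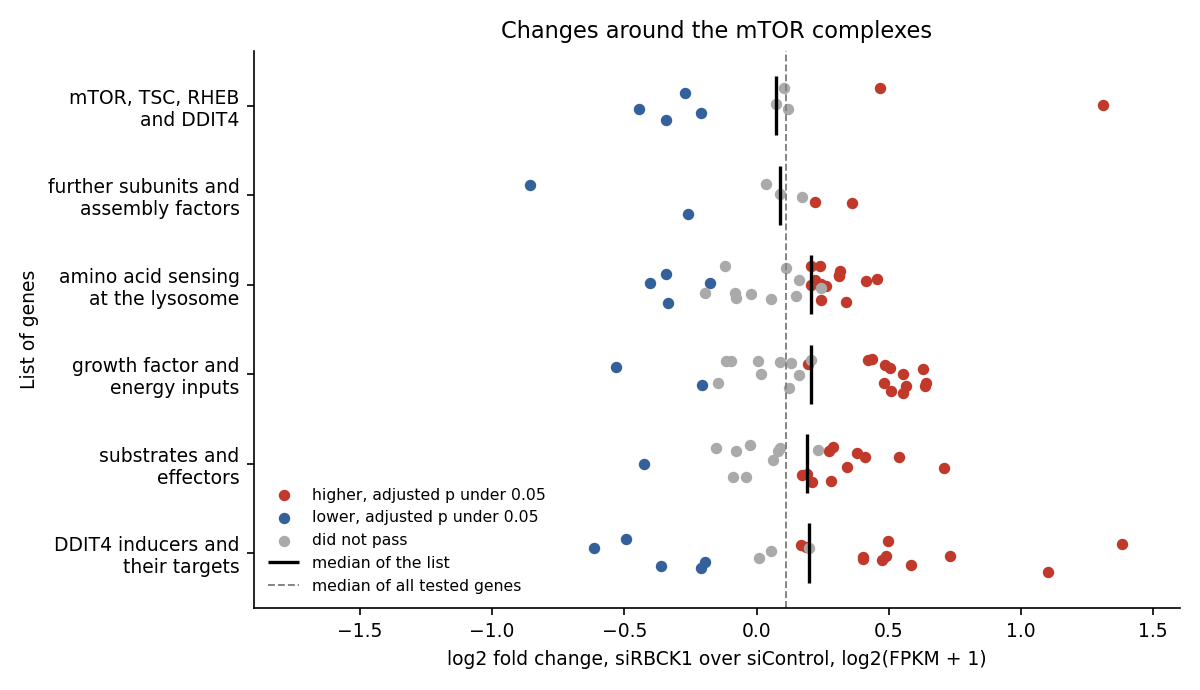
Log2 fold change on log2(FPKM + 1), siRBCK1 over siControl, of every tested gene of the 6 lists (limma, n = 3 each); red is higher and blue lower at an adjusted p under 0.05, grey did not pass, black bars are medians of the lists and the dashed line is the median of all tested genes (0.11). DDIT4 (1.31) and ADM (1.38) are the rightmost points, and MAPKAP1 (-0.86) the leftmost.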

How the data were processed

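RNA of MDA-MB-231 cells was sequenced by the authors with BGISEQ-500 protocols. The authors deposited FPKM values, rounded to 2 decimals, for 17149 genes in 6 libraries, and the submitters' processing notes name the build GRCh38. Which aligner, counting tool, annotation and strand setting they used is not given in the sources used here. Without read totals the depth behind each FPKM value stays unknown, so a test on counts was not possible. Sums of FPKM ran from 587248.4 to 594194.1 in siRBCK1 and from 614082.0 to 659065.0 in siControl libraries. The header inside the table of siRBCK1 replicate 2 names replicate 1, but only 0.548% of the values of the tested genes were identical between both, so it was kept as a library. Log2 values correlated at 0.9949 or more within groups and at 0.9859 or less between them.

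Gene numbers were matched to RefSeq symbols (17022 matched, 127 not). The test took log2(FPKM + 1) of the 11135 genes that reached 1 FPKM in 3 or more libraries through limma (version 3.58.1, R version 4.3.3) with its intensity trend, two-sided, Benjamini-Hochberg adjusted, at 0.05. Fold changes on this scale understate the change of low genes. Within-library ratios (no pseudocount, both genes at 1 FPKM or more in every library) were compared by exact permutation. Ratios with length and GC content removed were taken from log2(FPKM + 1) values. The steps were tested on simulated data. The members, the lists and the rule for naming genes (the 10 members, their paralogs and further subunits, up to 4 genes a list by size of change past the test, with no overlap and 5 FPKM or more in a group's mean, and the 5 profiles nearest to DDIT4) were chosen with earlier results of these data known. BMT2 was not analysed here, and the results for a few other genes are not reported here. The alternatives changed the pseudocount (0.1), the filter (none, or 5 FPKM), the scaling (quantile normalization, or a trimmed mean), the variances (unmoderated), the design (replicate block) and the libraries (each omitted in turn). Correction for exonic length and GC content (GENCODE 29, splines with 5 degrees of freedom) was chosen after seeing the data.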

Additional observations from a re-analysis of the deposited data

How the results depend on the processing

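The changes of DDIT4, RPTOR, RICTOR, TSC2, MAPKAP1 and TBC1D7, and of RBCK1 itself, kept their direction and their adjusted p under 0.05 in every alternative that could be fitted, which for RICTOR does not include the filter of 5 FPKM. Over all genes, trimmed-mean scaling gave 2592 higher and 2995 lower genes, against 4103 and 1899 as deposited. Among the mTOR genes, 1 was higher with a filter of 5 FPKM (RICTOR and TSC1 were then not tested) and 4 after quantile normalization, against 2, and 2 were lower without moderation of the variances, against 4. Of the genes in the lists around them, 32 were higher after trimmed-mean scaling and 33 in the unmoderated linear model, against 50, and 22 were lower both after quantile normalization and with length and GC content removed, against 14. Signs turned for genes near 0. After quantile normalization the log2 fold change was -0.062 for MTOR, -0.053 for PRR5L and -0.083 for TTI1. After trimmed-mean scaling it was -0.011 for MTOR, -0.016 for PRR5L, -0.093 for TTI1, -0.061 for RHEB and -0.014 for AKT1S1. With length and GC content removed it was -0.033 for MTOR, -0.049 for PRR5L and -0.10 for TTI1. The log2 ratio of AKT1S1 to MTOR was -0.0007 without a pseudocount and 0.018 with 1 FPKM added to each value. It was 0.14 when length and GC content were then removed from the values with 1 FPKM added. The causes were not tested.

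With each library left out in turn, 2 or 3 of the mTOR genes were higher and 2 to 4 lower, the fewest lower without siRBCK1 replicate 3, and 41 to 51 genes of the lists were higher and 11 to 15 lower. Over all genes 3061 to 4151 were higher and 1479 to 1952 lower. The log2 ratio of AKT1S1 to MTOR ranged from -0.14 to 0.10 and that of MLST8 to MTOR from -0.47 to -0.21. Same-numbered libraries of the groups did not deviate together (correlations of -0.06, -0.19 and -0.04), and no library correlated best with its own number. With the replicate number as a block, 3812 genes were higher and 1739 lower, the mTOR genes stayed at 2 higher and 4 lower, and the ratios reached no p below 0.25, the smallest that 3 pairs allow. Low values set the limit for DEPTOR, DDIT4L and PRR5, all under 1 FPKM.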
